A study of Mus musculus with 6 samples.

Results

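The constitutive proteasome genes were taken as the protein-coding rows of the deposited count table whose symbol starts with Psma to Psmg followed by a digit, leaving out Psmb8, Psmb9 and Psmb10, which encode the immunoproteasome subunits. This gave 47 of 35275 genes, and the rule itself uses symbols and gene type, not measured values. By role they were 14 subunits of the core (7 of the alpha ring and 7 of the beta ring), 17 subunits of the regulatory particle (9 of the base and 8 of the lid), 7 assembly chaperones, 6 activator and inhibitor genes and 2 tissue-restricted core subunits, Psma8 and Psmb11. Psmc3ip, a cofactor of meiotic recombination, entered by its symbol only. The symbols also miss proteasome genes named otherwise, so Adrm1, Shfm1 (now Sem1) and Pomp are given beside the members.

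The proteasome degrades proteins tagged with ubiquitin. Its barrel-shaped core holds stacked rings of alpha and beta subunits, with the cutting sites on the inner face of the beta subunits Psmb5, Psmb6 and Psmb7. The regulatory particle caps the barrel: the ring of ATPases in its base unfolds the substrate, and its lid removes the ubiquitin chain. In cells exposed to interferon the cutting subunits can be replaced by Psmb8, Psmb9 and Psmb10, and the PA28 activator, encoded by Psme1 and Psme2, can take the place of the regulatory particle. Most kidney cells express the constitutive form.

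The data are poly-A RNA-seq of 6 kidney samples from wild-type (WT) C57Bl/6 mice. All had been collected 28 days after ischaemia-reperfusion injury, a stop of the blood flow to the kidney that is then released. In the mild group (3 kidneys, libraries 7, 8 and 9) ischaemia had lasted 20 min, and in the severe group (3 kidneys, libraries 13, 14 and 15) it had lasted 35 min. Uninjured kidneys were not analysed here, so each difference compares a long with a short ischaemia. The animals' age is not given in the sources used here, and the labels do not say whether each kidney had its own donor mouse; p-values then describe the spread between these 6 samples, which may be technical.

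The libraries held 15240491 to 17730967 counts. The kidney markers Umod, Lrp2, Nphs1, Slc12a3 and Aqp2 were present in each library, with a summed level of 4414 to 8208 CPM (read counts scaled to a common library size after TMM normalisation). Severe libraries stood further apart from each other than mild ones, with 14.2 to 70.04 times the sampling noise between severe pairs against 3.67 to 5.34 times between mild pairs (chi-square per degree of freedom). Of 14883 genes with enough counts for a test, 2 passed an adjusted p of 0.05 (edgeR quasi-likelihood test, Benjamini-Hochberg over all tested genes), which is 0.0134% of them.

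Constitutive proteasome genes differed little between the groups. Of the 47, 45 were tested and 0 passed in either direction (lowest edgeR adjusted p = 0.151, for Psmc4). At an unadjusted p under 0.05, 1 was higher in severe kidneys, Psme1, beside 15.8% of all tested genes, and 3 were lower, Psmc4, Psmd3 and Psmc2, beside 7.89%. The median log2 fold change (severe minus mild) of the 45 was -0.11 and the median of all tested genes was 0.000194. Single values ran from -0.39 for Psmg3 to 0.23 for Psme2, and 40 of the 45 were negative. In 14 members every severe library lay under every mild one, which is 31.1% of the tested members beside 16.1% of all tested genes. In 1 member, Psme1, every severe library lay above, beside 17.9%.

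These small values depend on how libraries are put on 1 scale. With library totals in place of TMM scaling the median of all tested genes moved up by 0.17 and the members' median stood at 0.052, so the direction turned for 28 of the 45 members. Differences between gene groups or between genes within a library do not take this shift. Unless library totals are named, each log2 fold change of a gene or list is on the TMM scale. It stands about 0.17 higher with library totals. On that scale 8 members lay above the mild range and 0 below it, beside 29.2% and 6.63% of all tested genes. Set against the median of all tested genes, the members' median was -0.11 with TMM and -0.12 with library totals, and 40 of 45 lay under it on both scales. Without severe library 14 it was -0.059, and without severe library 13 it was -0.16.

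**Figure D1:**
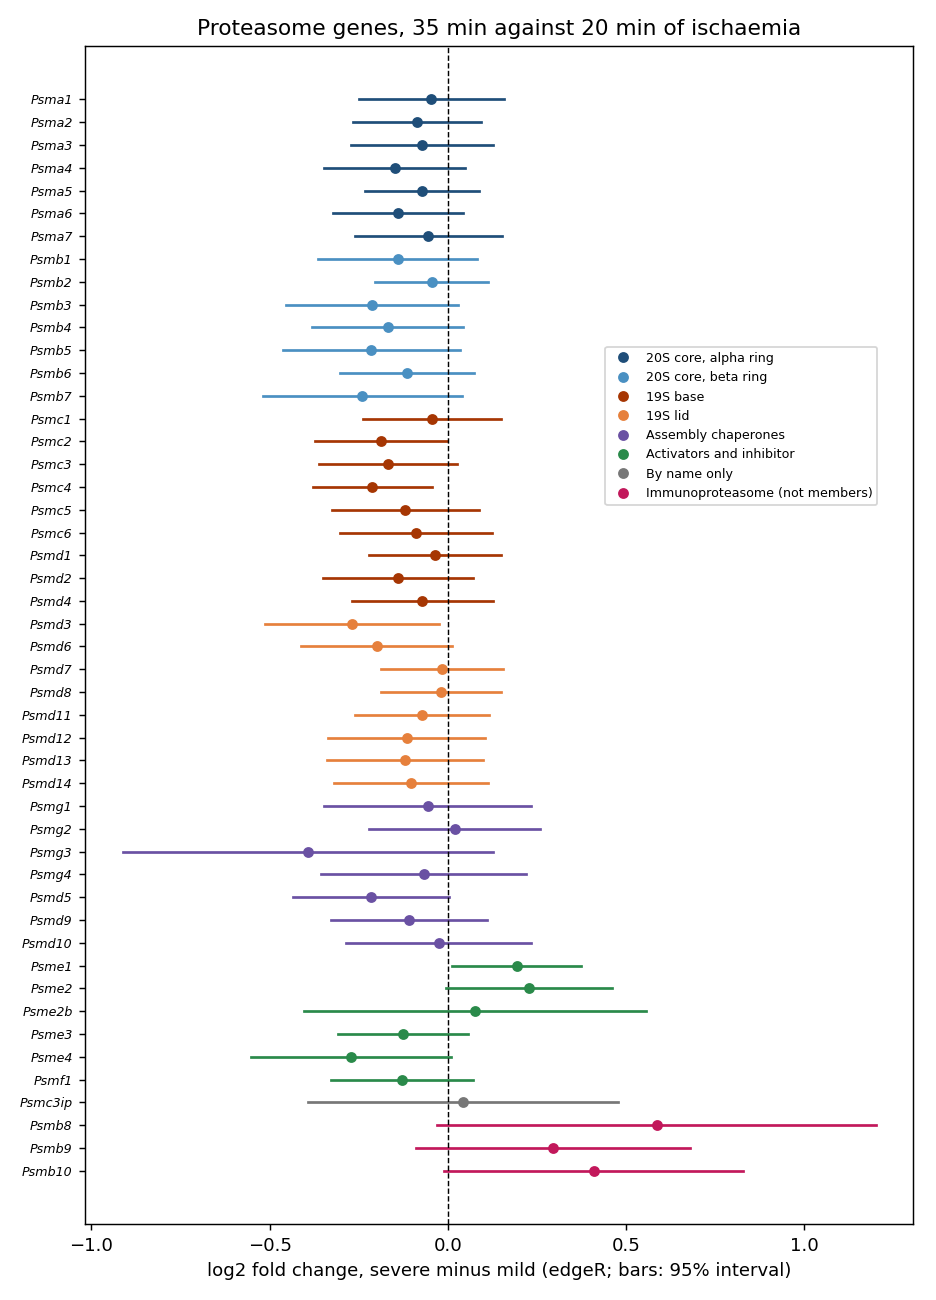
Log2 fold change of each tested member and of the 3 immunoproteasome genes, severe minus mild, with 95% intervals from the edgeR fit and the dashed line at 0. The 31 core and regulatory particle subunits sit between -0.27 and -0.017, while Psme1 and Psme2 sit at 0.19 and 0.23; on the scale of library totals most members turn above 0.

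Proteasome genes are known to be induced together by the transcription factor NRF1, encoded by Nfe2l1, through antioxidant response elements in their promoters. The 100 bases before the start site are shown for the cutting subunits Psmb5 and Psmb6, which hold a match to the core of this element. They are also shown for Psmc4, the member with the smallest p, and for Psme2, the member with the highest fold change. Psme2 has start sites listed at 55591101 and at 55591021, and only the bases before 55591101 are shown. Capitals mark a match to TGACNNNGC (searched on both strands); sequences are from RefSeq on GRCm38.p6, 5′ to 3′ on the gene's strand.
Psmb5 (chr14:54617996-54618095, minus strand): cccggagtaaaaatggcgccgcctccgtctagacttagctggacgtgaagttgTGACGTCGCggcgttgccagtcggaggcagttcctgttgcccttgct
Psmb6 (chr11:70525257-70525356, plus strand): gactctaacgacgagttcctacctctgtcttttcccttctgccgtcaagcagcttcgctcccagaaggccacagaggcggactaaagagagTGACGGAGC
Psmc4 (chr7:28050093-28050192, minus strand): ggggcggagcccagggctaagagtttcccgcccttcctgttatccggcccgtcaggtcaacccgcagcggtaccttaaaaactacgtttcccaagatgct
Psme2 (chr14:55591102-55591201, minus strand): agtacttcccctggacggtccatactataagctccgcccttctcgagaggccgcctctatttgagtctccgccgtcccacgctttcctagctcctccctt

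Promoters of 250 bases before to 50 after the start site were searched for 39 of the 47 genes. TGACNNNGC was found in 6 of the 42 promoters listed for them (14.3%), 1 each of Psmb5, Psmb6, Psmc6, Psmd12, Psmd9 and Psme4, beside 12.4% of all 32851 promoters in the RefSeq table. The match began at -47 from the start site in Psmb5 and at -9 in Psmb6. CCAAT, the box bound by NF-Y, was found in 14 of the 42 (33.3%) beside 37.4% of all promoters. It was present in 6 of 11 core and 4 of 14 regulatory genes searched. Psmb1, Psmb2, Psmb7, Psmc3, Psmd3 and Psmd7 had no entry, and Psma8 and Psmg2 were not searched. Both shares lay close to those of all promoters, and a match is a run of letters only.

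The core's 14 subunits had a median log2 fold change of -0.13, all 14 were negative with TMM scaling, and 0 passed the test (edgeR adjusted p from 0.247 to 0.756). With library totals their median was 0.039. In 5 of the 14 the groups did not overlap, each time with severe kidneys lower: Psma4, Psma6, Psmb4, Psmb5 and Psmb6. This is 35.7% of the core beside 16.1% of all tested genes, and with library totals it was 0 for every member. On the TMM scale the 95% intervals of the 14 together reached from -0.52 to 0.16, so a larger change on that scale was outside each subunit's interval. The intervals do not cover the choice of scaling.

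Psmb5, which carries the chymotrypsin-like activity and is the target of proteasome inhibitors such as bortezomib, stood at 155.7, 153.9 and 152.5 CPM in mild libraries 7, 8 and 9 and at 148.8, 115 and 134.1 CPM in severe libraries 13, 14 and 15. All severe values were lower than all mild ones, with library 14 lowest and library 13 close to the mild range. The log2 fold change was -0.21 ± 0.11 (SE, n = 3 each; edgeR adjusted p = 0.252), and -0.057 with library totals.

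Psmb6, which carries the caspase-like activity, stood at 113, 107.1 and 108.5 CPM in mild and at 106.8, 93.97 and 103 CPM in severe libraries, in the same library order. Library 13 lay just under the lowest mild library. Its log2 fold change was -0.11 ± 0.081 (edgeR adjusted p = 0.393), and 0.049 with library totals.

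Psmb7, which carries the trypsin-like activity, had the lowest fold change of the core. It stood at 145.1, 145.1 and 137.8 CPM in mild and at 138.2, 101 and 123 CPM in severe libraries, so that library 13 fell inside the mild range and libraries 14 and 15 below it. Its log2 fold change was -0.24 ± 0.12 (edgeR adjusted p = 0.254), and -0.084 with library totals. The gene span of Psmb7 overlaps that of Nek6 on the other strand, and whether exons overlap was not checked. Without a stated strand setting, reads from a shared stretch cannot be told apart.

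Psmb3, a structural subunit of the beta ring, had the smallest p of the core. It stood at 95.6, 85.4 and 86.8 CPM in mild and at 86.7, 68.004 and 76.3 CPM in severe libraries, with library 13 inside the mild range. On the log2 scale the difference was -0.21 ± 0.10 (edgeR adjusted p = 0.247). At the other end, Psmb2, also structural, stood at 56.3 ± 1.76 CPM in mild and at 54.6 ± 1.65 CPM in severe kidneys (mean ± SD, n = 3; log2 fold change -0.046 ± 0.069, and 0.12 with library totals).

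The alpha ring, which gates the entry to the barrel, spanned a narrower band of fold changes than the beta ring. Its 7 fold changes lay between -0.15 (Psma4) and -0.046 (Psma1) with a median of -0.072, against -0.24 to -0.046 and a median of -0.17 in the beta ring. With TMM scaling, the lowest of the 6 libraries was severe library 14 for 6 of 7 beta subunits and for 3 of 7 alpha subunits. The same held for 34.5% of all tested genes. As a mean over the ring, relative to the mild mean, the beta ring minus the alpha ring stood at 0.0078, -0.19 and -0.056 in severe libraries 13, 14 and 15 and at -0.026, 0.018 and 0.0082 in mild libraries 7, 8 and 9. The groups overlapped, and library 14 held most of the difference, which went from -0.078 with it to -0.024 without it.

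The regulatory particle stood close to the core. Its 17 subunits had a median log2 fold change of -0.12, all 17 were negative with TMM scaling, and 0 passed (edgeR adjusted p from 0.151 to 0.90). With library totals their median was 0.044, and without severe library 14 it was -0.045 under TMM. In 6 of the 17 the groups did not overlap, with severe kidneys lower: Psmc2, Psmc3, Psmc4, Psmd2, Psmd3 and Psmd6. This is 35.3% of the particle beside the same 16.1%, and again 0 with library totals. With TMM scaling, severe library 14 was the lowest of the 6 libraries in 15 of the 17, beside 34.5% of all tested genes. That library had the largest TMM factor, 1.17 beside 0.943 to 1.04 in the others, and its place rests on this scale. With library totals the summed level of the particle was highest in library 14.

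Psmc4, an ATPase of the base, had the smallest p of all members. It stood at 95.4, 97.3 and 101 CPM in mild libraries and at 88.1, 82.1 and 83.3 CPM in severe ones. Here library 13 also lay clear of the mild range. The log2 fold change was -0.21 ± 0.072 (SE, n = 3 each; edgeR adjusted p = 0.151), and -0.046 with library totals.

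Psmd3, a scaffold subunit of the lid, had the lowest fold change of the particle. It stood at 156.4, 168.2 and 169.3 CPM in mild and at 146.6, 119 and 144.1 CPM in severe libraries. All 3 severe values were under the mild ones and library 14 was far lower than the others. The log2 fold change was -0.27 ± 0.11 (edgeR adjusted p = 0.186), and -0.11 with library totals.

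Psmc2, another ATPase of the base, stood at 107 ± 4.71 CPM in mild kidneys and 93.6 ± 5.11 CPM in severe ones (log2 fold change -0.19 ± 0.080, edgeR adjusted p = 0.206). Psmd2, the large base subunit that docks ubiquitin carriers, stood at 209.6 ± 4.80 CPM in mild kidneys and at 190.1 ± 9.86 CPM in severe kidneys. Psmd7, the partner of the deubiquitinase in the lid, had the fold change nearest to 0, with 84.3, 84.5 and 76.1 CPM in mild against 81.2, 79.3 and 81.5 CPM in severe libraries, a log2 fold change of -0.017 ± 0.074. The deubiquitinase itself, Psmd14, stood at -0.10 ± 0.093, and the ubiquitin receptor Psmd4 at -0.072 ± 0.085.

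The design asks for the core against the regulatory particle, and their differences between groups were of like size. The mean log2 CPM over the 14 core subunits, relative to its mild mean, was -0.047, -0.21 and -0.12 in severe libraries 13, 14 and 15, and that over the 17 regulatory subunits was -0.033, -0.21 and -0.11. Mild libraries 7, 8 and 9 stood at 0.070, -0.022 and -0.047 for the core and at 0.024, -0.0049 and -0.020 for the regulatory particle. Severe library 13 and mild library 9 were equal to 2 digits for the core. Library 14 was lowest for both particles with TMM scaling and highest for both with library totals. The core minus the regulatory particle was -0.014, 0.000149 and -0.013 in the severe libraries and 0.045, -0.018 and -0.028 in the mild ones. The severe values fell inside the mild range. The group means differed by -0.0089, less than the SD of 0.040 among mild libraries, and no p is given for a score over chosen genes. Taking the alpha ring alone as the core gave 0.030 and the beta ring alone -0.048, and medians over members in place of means gave 0.085. Without mild library 7 it was 0.014. The sign of the difference thus changed with the subunits, the summary and 1 library. The base minus the lid differed by -0.0020, with an SD of 0.032 in mild and 0.039 in severe libraries.

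**Figure D2:**
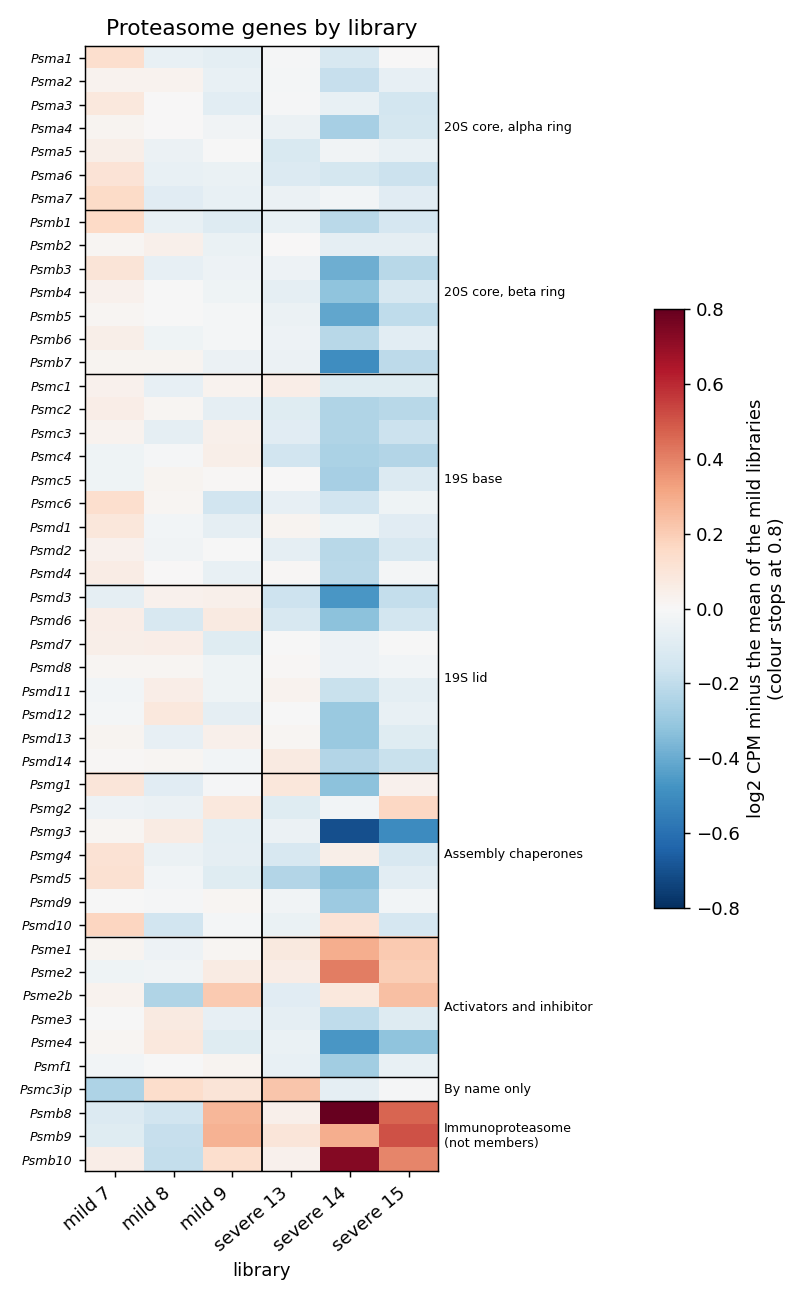
Log2 CPM of each tested member and of the 3 immunoproteasome genes in the 6 libraries, minus the mean of the mild libraries, as colour that stops at 0.8; rows are genes by role and columns are libraries. With TMM scaling, severe library 14 is the lowest of the 6 in 24 of the 31 core and regulatory rows, but in only 3 of 7 alpha ring rows. As means over each particle, library 13 lies nearest to 0 of the severe libraries, and library 15 lies between 13 and 14. Psme1, Psme2 and the immunoproteasome rows are reddest in libraries 14 and 15. With library totals 28 of 45 members change sign.

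Members varied little between kidneys. The median SD of log2 CPM over the 45 members was 0.064 in mild and 0.11 in severe kidneys, against 0.10 and 0.19 over all tested genes, which include many at lower counts with more counting noise. The SD was larger in severe kidneys for 30 of the 45. With TMM scaling the summed level of the 47 genes was 3835 to 4026 CPM in mild and 3385 to 3797 CPM in severe libraries. These sums are not shares of the raw counts. With library totals the ranges of the groups overlapped, so the gap rests on the scale.

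Levels between genes were compared per kb of gene length (CPM divided by the table's gene length in kb). In mild kidneys the 14 core subunits ran from 46.3 (Psma5) to 176.9 (Psmb5) CPM per kb with a median of 96.3, and the 17 regulatory subunits from 30.8 (Psmc2) to 83.6 (Psmc1) with a median of 52.0. Of the core subunits 8 lay above the highest regulatory subunit. The ratio of the medians was 1.85 in mild and 1.89 in severe kidneys. With the length of the longest coding transcript of GENCODE M21, a choice made after seeing the data, it was 1.54 and 1.64. Psmb5 ranked first of the 31 in both groups with either length. Psmc2 ranked last in both groups by the table's length but not by the transcript length (59.7 CPM per kb in mild kidneys). Psma2, of the core, moved further, from 95.9 CPM per kb in mild kidneys to 31.1 by the transcript length, the lowest of the 31. By that length 9 core subunits lay above the highest regulatory subunit in mild kidneys. The log2 levels of the 31 subunits had a Pearson correlation of at least 0.972 between any pair of libraries, which share the same genes and lengths. In mild kidneys Psmb1 and Psmb6, at 114 CPM per kb each, were neighbours in this order that did not differ beyond their spread.

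**Figure D3:**
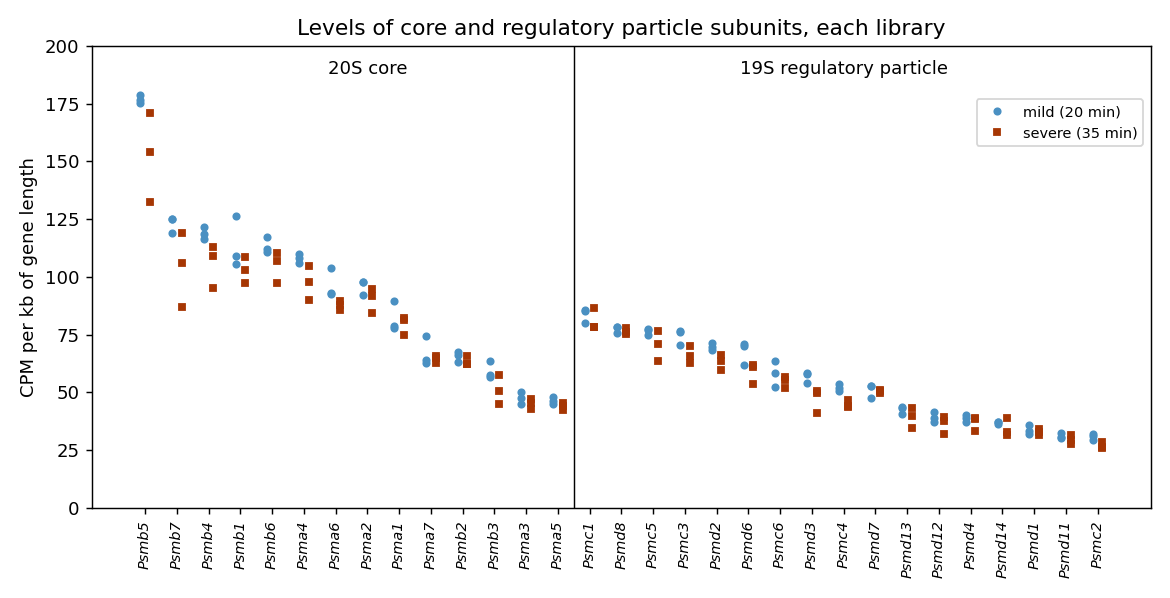
CPM per kb of gene length in each library for the 14 core and 17 regulatory particle subunits, ordered by the mild mean within each particle, circles for mild and squares for severe kidneys. Psmb5 stands highest in both groups, and no regulatory subunit exceeds 83.6 in its mild mean, while the severe squares lie at or just under the mild circles for most genes.

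The 7 assembly chaperones, which put the rings and the base together and are not part of the finished particle, had a median of -0.068 with 0 passing (edgeR adjusted p from 0.214 to 0.92). Psmd5, a chaperone of the base, stood at 54.9, 49.8 and 47.2 CPM in mild and 43.0, 40.1 and 47.7 CPM in severe libraries, with library 15 inside the mild range (log2 fold change -0.22 ± 0.095, edgeR adjusted p = 0.214). Its span overlaps that of Cutal on the other strand, which held up to 976 counts in a library. As for Psmb7, reads from a shared stretch cannot be told apart. Psmg3, a chaperone of the alpha ring, had the lowest value of all members at -0.39 ± 0.22 (edgeR adjusted p = 0.30). It stood at 3.51, 3.65 and 3.29 CPM in mild and at 3.37, 2.14 and 2.46 CPM in severe libraries, on 38 to 61 counts per library. Psmg2, another chaperone of the alpha ring, stood at 18.7, 18.6 and 20.4 CPM in mild and at 17.95, 18.9 and 21.6 CPM in severe libraries, with overlapping groups (0.019 ± 0.10). Pomp, which helps the beta ring form and lies outside the rule, stood at 88.5, 82.0 and 79.9 CPM in mild and at 75.1, 69.0 and 68.0 CPM in severe libraries, without overlap (log2 fold change -0.24 ± 0.078, edgeR adjusted p = 0.142).

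Of the other proteasome genes outside the rule, the ubiquitin receptor Adrm1 stood at 101 ± 2.63 CPM in mild kidneys and 83.02 ± 11.5 CPM in severe ones, without overlap (-0.28 ± 0.11, edgeR adjusted p = 0.181), and the small lid subunit Shfm1 stood at -0.020 ± 0.083. Neither passed.

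The activators had fold changes of both signs. Psme1 and Psme2, the interferon-inducible alpha and beta subunits of PA28, had positive fold changes on every scale tried, and the nuclear activators Psme3 (PA28 gamma) and Psme4 had negative ones with TMM scaling (0.039 and -0.11 with library totals). Of the 6 genes of this group 0 passed (median -0.025). Psme1 stood at 54.9, 52.6 and 54.7 CPM in mild and at 57.05, 66.04 and 62.4 CPM in severe libraries, all severe values above all mild ones (log2 fold change 0.19 ± 0.078, edgeR adjusted p = 0.196). Psme2 stood at 45.9, 46.1 and 49.2 CPM in mild and at 48.9, 62.4 and 53.8 CPM in severe libraries, with library 13 inside the mild range (0.23 ± 0.10, edgeR adjusted p = 0.217). For Psme2 the value was 0.13 without severe library 14, and 0.31 without severe library 13, where it passed (edgeR adjusted p = 0.0484) along with 21.5% of all genes tested without that library.

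Psme4 stood at 153, 161.1 and 142.0 CPM in mild and at 146.7, 110 and 121.7 CPM in severe libraries. Library 13 lay inside the mild range and the others below it. The log2 fold change was -0.27 ± 0.12 (edgeR adjusted p = 0.22), and without severe library 13 it was -0.39 and passed (edgeR adjusted p = 0.0311), again beside 21.5% of all genes. Over the 6 fits that left out 1 library the adjusted p ran from 0.0311 to 0.462 for Psme4 and from 0.0484 to 0.428 for Psme2. Psme3 stood at -0.13 ± 0.079 and the inhibitor Psmf1 at -0.13 ± 0.086, both lower in every severe library on the TMM scale (0.039 and 0.032 with library totals). Psme2b, a single-exon relative of Psme2, averaged 2.99 ± 0.459 CPM in the mild and 3.15 ± 0.356 CPM in the severe group. Reads that may fit both genes were not measured, so the level of Psme2b is uncertain. Its span overlaps Gm12185 and 9930111J21Rik1 on the same strand, which held at most 18 counts in a library.

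Relative to the regulatory particle, the PA28 pair stood at 0.10, 0.56 and 0.31 in severe libraries 13, 14 and 15 and at -0.030, -0.030 and 0.060 in the mild ones (difference of mean log2 CPM from the mild mean). The groups did not overlap, and the order of the severe libraries from the highest was 14, 15, 13. This is the reverse of the order of the core with TMM scaling. With library totals the core's own order was 14, 15, 13, so the opposition rests on the scale.

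The immunoproteasome genes that the rule left out were compared with the constitutive subunits they replace. Psmb8 stood at 7.64, 7.42 and 9.94 CPM in mild and 8.48, 17.5 and 11.4 CPM in severe libraries (log2 fold change 0.59 ± 0.27, edgeR adjusted p = 0.224). Psmb9 stood at 0.29 ± 0.17 and Psmb10 at 0.41 ± 0.18 (edgeR adjusted p = 0.296 and 0.217), each with overlapping groups. Per gene length, Psmb8 reached 2.24%, 2.201% and 2.98% of the Psmb5 level in mild libraries and 2.60%, 6.94% and 3.89% in severe ones. Psmb10 reached 10.6%, 8.92% and 11.8% of Psmb7 in mild and 10.9%, 24.3% and 15.7% in severe libraries. Psmb9 reached 3.27 ± 0.598% of Psmb6 in mild and 4.35 ± 0.701% in severe kidneys. In libraries 14 and 15 all 3 ratios were above the mild range and in library 13 all 3 were inside it. The log2 ratios differed between groups by 0.75, 0.64 and 0.41 for these pairs (exact permutation test, two-sided, p = 0.2 for each, 0.2 after Benjamini-Hochberg adjustment over 3 ratios; 0.1 is the smallest p that 3 against 3 allow), and by 0.38, 0.34 and 0.36 without library 14.

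Markers of the kidney's cell types differed in the same libraries. All 11 macrophage markers were higher in severe kidneys on the fitted scale, with a summed level of 329 to 399 CPM in mild and 611 to 1183 CPM in severe libraries, highest in library 14. All 11 proximal tubule markers were lower, with summed levels of 37407 to 40151 CPM in mild and 16303 to 32413 CPM in severe libraries, lowest in library 14. The 7 fibroblast markers were all higher, with 537 to 674 CPM in mild and 1141 to 3809 CPM in severe libraries, and the 4 proliferation markers had a median log2 fold change of 0.87. Of 6 loop of Henle markers 5 were lower, and 0 genes of these 5 lists passed (lowest edgeR adjusted p = 0.0867). The T and NK cell markers summed to 5.78 to 11.04 CPM in mild and 8.31 to 14.1 CPM in severe libraries, the B cell markers to 2.21 CPM at most and the testis markers to 2.70 to 6.31 CPM, with Tnp1 and Prm1 at 0. The part of this shift in cell markers in the proteasome values was not tested. In bulk kidney RNA, fewer cells of a type and less RNA per cell cannot be told apart.

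**Figure D4:**
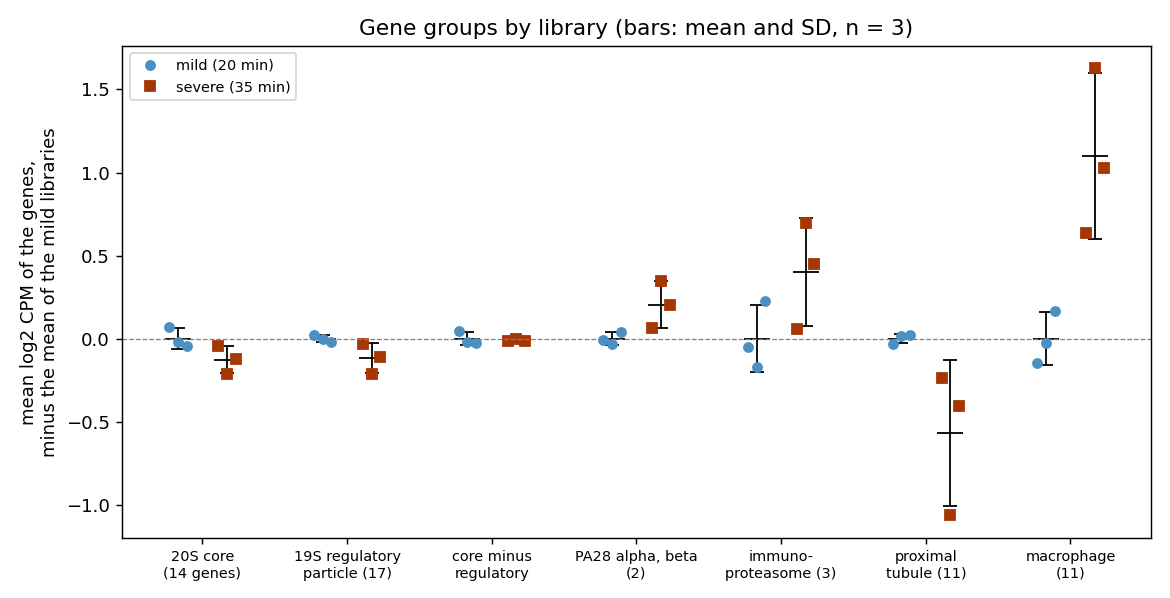
Mean log2 CPM of each gene group in each library minus the mean of the mild libraries, with the mean and SD of each group of 3 as bars; circles are mild and squares severe kidneys. With TMM scaling core and regulatory particle both stand at -0.21 in severe library 14 and their difference lies near 0 (both group medians turn positive with library totals), while the PA28 pair and macrophage markers are highest and proximal tubule markers lowest in that library.

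The tissue-restricted core subunits were at or near the limit of detection. Psma8, the alpha subunit of the testis form, had 3, 3 and 1 counts in mild and 3, 0 and 5 counts in severe libraries. Psmb11, the beta subunit of the thymus form, had 0 counts in every library, which allows up to 3 counts, or 0.169 to 0.207 CPM. No fold change is given for either. Psmc3ip had a mean of 4.11 ± 0.576 CPM in the mild group and 4.23 ± 0.469 CPM in the severe group.

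Genes that act around the proteasome were taken as a list of 30, of which 29 were tested; Paaf1 was not analysed here. On the TMM scale the list had a median of -0.069, with 22 of 29 negative and 0 passing. At an unadjusted edgeR p under 0.05, 2 were lower, beside 7.89% of all tested genes, and 0 were higher, beside 15.8%. Of the 29, 9 were lower without overlap, beside 16.1% of all tested genes. These counts are for the TMM scale only. Ngly1, the glycanase that edits NRF1 so that it can act, stood at 63.6, 63.1 and 62.2 CPM in mild and 53.3, 45.4 and 51.7 CPM in severe libraries. This was the widest gap of the list relative to its error, with no overlap (log2 fold change -0.33 ± 0.081, edgeR adjusted p = 0.0987). The ligase Ube3c, which extends chains on stalled substrates, stood at 62.4, 59.4 and 57.1 CPM in mild and at 56.1, 50.3 and 53.1 CPM in severe libraries (-0.17 ± 0.076, edgeR adjusted p = 0.227). The protease Ddi2, which cleaves NRF1, stood at 113.2, 109.6 and 108.7 CPM in mild and at 91.9, 101.3 and 103.9 CPM in severe libraries (-0.16 ± 0.080, edgeR adjusted p = 0.255). Neither overlapped between groups. Nfe2l1 itself stood at 240.3, 222.6 and 228.2 CPM in mild and 222.03, 217.2 and 228.4 CPM in severe libraries, with overlapping groups and a log2 fold change of -0.050 ± 0.092.

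Members lay on 16 chromosomes. In the table's mm10 coordinates Psmb5 (ENSMUSG00000022193) is a minus-strand gene at 54614120 to 54617995 of chromosome 14, and Psme1 (ENSMUSG00000022216) and Psme2 (ENSMUSG00000079197) lie on the same chromosome from 55578123 to 55581529 on the plus strand and from 55587441 to 55591113 on the minus strand, 5912 bases apart. Psmc4 (ENSMUSG00000030603) is a minus-strand gene at 28041707 to 28050101 of chromosome 7, and Psmd3 (ENSMUSG00000017221) a plus-strand gene at 98682554 to 98695979 of chromosome 11. Of the 47 members 17 overlap another gene of the table and 14 one on the other strand, Psme1 (Emc9) among them. These overlaps are of gene spans, and exons were not compared. The genes that overlap Psmd13, Sirt3 and Gm15542, held up to 1402 counts in a library. Slc39a13, which overlaps Psmc3 on the other strand, held up to 728. The 3 pseudogene rows with a proteasome symbol held at most 1 count in any library.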

How the data were processed

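The authors deposited 1 table of raw read counts per Ensembl gene for 6 kidneys. Per the submitters' processing notes, the tools included HTSeq 0.6.1, TopHat2 2.0.12 and Bowtie2 2.2.3, on build mm10. What each tool did, the annotation and the strand setting were not given in the sources used here. Column headers show the group but not which titled sample they hold, so no libraries were paired. Genes were filtered with filterByExpr, scaled by TMM and tested with edgeR 4.0.16 (quasi-likelihood F test, robust dispersion, R 4.3.3), severe against mild, adjusted over all 14883 tested genes. A standard error is the fitted log2 difference over the square root of its F. Scores are means of log2 CPM with a prior count of 2. Floors of 3 counts cover counting error only.

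Members, roles and lists were chosen with earlier results of these data known. Every member is named by role; values by library or as mean ± SD are given for Psmb5, Psmb6 and Psmb7 and, per role, for the genes with the smallest p and the lowest and highest fold change, and for the 4 linked genes with the smallest p, of which 1 is not reported here. Positions, Psmc2, Psmd2, Psmd4, Psmd14 and Nfe2l1 were added after their values were seen. Alternatives were other scalings and filters, DESeq2 1.42.0, limma-voom (limma 3.58.1) with and without quality weights, non-robust dispersion, other definitions of the particles and each library left out in turn. Gene length is the deposited table's, in bases, and how it was computed is not stated. Of the members 47 are in GENCODE M21, 34 with the same start and end.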

Additional observations from a re-analysis of the deposited data

How the results depend on the processing

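The count of genes past the threshold, 2 with the design given above, was 1 with library totals, 146 with no filter on low counts, 1160 with DESeq2, 5041 with limma-voom and quality weights, 616 at an adjusted p under 0.10, and 0 to 3269 when 1 library was left out (3269 without severe library 13, 501 without 14, 1 without 15, 0 without any 1 mild library, where 2137 to 2345 genes had an unadjusted edgeR p under 0.05). At an unadjusted edgeR p under 0.05 there were 4 proteasome members. Of these, 1 was higher, beside 15.8% of all tested genes, and 3 were lower, beside 7.89%. The count of proteasome members past the threshold was 0, beside 0.0134% of all tested genes. It was 11 with limma-voom and quality weights, beside 33.9% of all genes, with 2 higher (Psme1 and Psme2) and 9 lower (Psmb3, Psmb5, Psmb7, Psmc2, Psmc3, Psmc4, Psmd3, Psme4 and Psmg3). When 1 library was left out it ran from 0 to 2 (Psme2 and Psme4 without severe library 13, beside 21.5% of all genes). It was 0 with DESeq2 (lowest adjusted p = 0.113), limma-voom without weights and each other scaling and filter tried.

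With library totals the median was 0.039 for the core and 0.044 for the regulatory particle. When 1 library was left out the core's median ran from -0.15 to -0.074 and that of the regulatory particle from -0.17 to -0.045. Core minus regulatory particle was 0.085 with medians over members, 0.030 with the alpha ring only and -0.048 with the beta ring only; the cause was not tested. The sign changed for 28 of 45 members with library totals, and for 0 to 6 in the other settings. Without severe library 13, 14 or 15, the groups of 26, 16 and 15 members did not overlap on the lower side, beside 27.9%, 18.98% and 19.6% of all tested genes, an alternative added after seeing the data. No paired analysis was possible because the sample titles number the kidneys 1 to 6 with no number shared between the groups.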
